A study of Homo sapiens with 4 samples.

Results

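A set of 9 genes of the p53 pathway was followed in Hs683 cells, an established line grown from a human glioma of the brain, with and without added miR-20a. They were MDM2, MDM4, PPM1D, CCNG1, GADD45A, SESN1, RRM2B, FAS and ZMAT3, taken by gene symbol from a table that measured 17716 genes. Probe sets (groups of short probes for the same transcript) were found for 8 of the 9 genes; MDM4 was not analysed here, nor was the transcript of p53 itself. MDM2 had 2 probe sets and each of the others had 1; of the 2 for MDM2, the one with the higher mean over the 4 arrays stood for the gene.

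All cells carried a knockdown of QK, now named QKI, which encodes a glial protein that binds RNA. One group was transduced with miR-20a and the other with a non-targeting scrambled control (miR-NT), and each group held 2 arrays. The labels state neither how the knockdown was made nor whether the cells came from 1 clone. The comparison asks what miR-20a does to transcript levels where QKI is reduced.

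The transcription factor p53 is activated by DNA damage and other stress. It switches on genes that halt the cell cycle, aid DNA repair or start cell death, and it also induces its own inhibitors, which close a feedback loop. MDM2, the best known of these, marks p53 for degradation, so that the loop can be followed through the transcripts of the target genes. Many of these targets keep a basal level in unstressed cells.

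The microRNA is shown first because it is what sets the groups apart. The capitals mark the seed, bases 2 to 8, with which a microRNA pairs to its target messages. Both arms of the hairpin are given since the labels do not name one, followed by miR-17-5p as an example of a shared seed (RefSeq sequences, GRCh38.p14).
miR-20a-5p: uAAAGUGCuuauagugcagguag
miR-20a-3p: aCUGCAUUaugagcacuuaaag
miR-17-5p: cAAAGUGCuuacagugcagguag
The seed of miR-20a-5p is shared by 7 other mature microRNAs in that table, miR-17-5p, miR-20b-5p, miR-93-5p, miR-106a-5p, miR-106b-5p, miR-519d-3p and miR-526b-3p. Sites for this seed in the messages of the 9 genes were not analysed here.

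The promoters of the pathway's genes were searched for the p53 response element, since direct control by p53 is what defines a target. The p53 consensus, 2 decamers without a spacer, was searched on both strands with the 4 core bases fixed and at most 2 mismatches elsewhere, in windows from 250 bases before to 50 bases after each annotated start. Windows were found for 7 of the 9 genes, and 2 of the 7, MDM2 and FAS, held a match. Over all genes with a window, 98 of 27305 held one (0.359%). Among the other p53 targets listed for comparison it was 4 of 33 genes (12.1%). A site with a spacer, or one outside these windows, would have been missed, so a gene without a match may still have one. The capitals mark the core bases.
MDM2: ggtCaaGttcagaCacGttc
FAS: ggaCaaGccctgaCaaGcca
The MDM2 match lies at chr12:68808923-68808942 on the plus strand, from 94 to 75 bases upstream of one annotated start and from 101 to 82 bases upstream of a second. The windows of the other annotated starts of MDM2, farther upstream, had no match. The FAS match lies at chr10:88991309-88991328 on the plus strand, from 122 to 103 bases upstream of an annotated start. It was found in 1 of the 3 FAS windows, and those of the other annotated starts had no match. Both stretches are known p53 response elements. A match is a description of these letters and gives no measure of p53 binding in these cells.

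None of the 6 genes of this set that were bright enough to test passed the test between miR-20a and miR-NT. Their log2 fold changes lay between −0.21 for CCNG1 and 0.10 for MDM2. Of the 12401 genes tested, 0 were higher and 1 was lower at a limma adjusted p under 0.05 (0.00806% of all genes). At an unadjusted p under 0.05 the set again had 0 genes, where 5.82% of all tested genes were higher and 13.2% lower in the limma fit. The set had 3 genes above 0 and 3 below, beside 5729 above and 6668 below over all tested genes. Its median log2 fold change was −0.05, beside −0.02 over all tested genes. No interval of the 6 genes reached a 2-fold change. The bound farthest from 0 was the lower bound of PPM1D, a 1.41-fold decrease.

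Signal at the 5' ends of abundant transcripts, a sign of RNA or labelling quality, differed between the groups. The 5' control of ACTB measured 12.78 and 12.66 on the miR-NT arrays and 11.59 and 10.43 on the miR-20a arrays, and that of GAPDH 13.89 and 13.81 against 13.17 and 12.30 (log2). Both were lowest on miR-20a replicate 2. The medians of all probe sets lay between 6.43 and 6.45 on the 4 arrays. QKI measured 8.14 and 7.92 on the miR-NT arrays and 7.52 and 7.08 on the miR-20a arrays, a log2 fold change of −0.73 short of the threshold (SE 0.16, limma adjusted p = 0.106). Of 12 glial and neural markers 7 were above the brightness filter, among them VIM and CD44, while GFAP, OLIG2, S100B, NES and PTPRZ1 were below it. Markers of other cell types below the filter were PTPRC and CD14 (immune), EPCAM, CDH1 and KRT19 (epithelial), and VWF, CDH5 and KDR (endothelial). AIF1 and CD3E (immune), KRT8 and KRT18 (epithelial) and PECAM1 (endothelial) were above it. The mean over the immune list was 5.95 to 6.02 with miR-NT and 6.02 to 6.11 with miR-20a. Over the epithelial list it was 6.83 to 6.84 against 6.77 to 6.85. That of the endothelial list was 4.97 to 4.99 against 4.96 to 5.07.

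**Figure D1:**
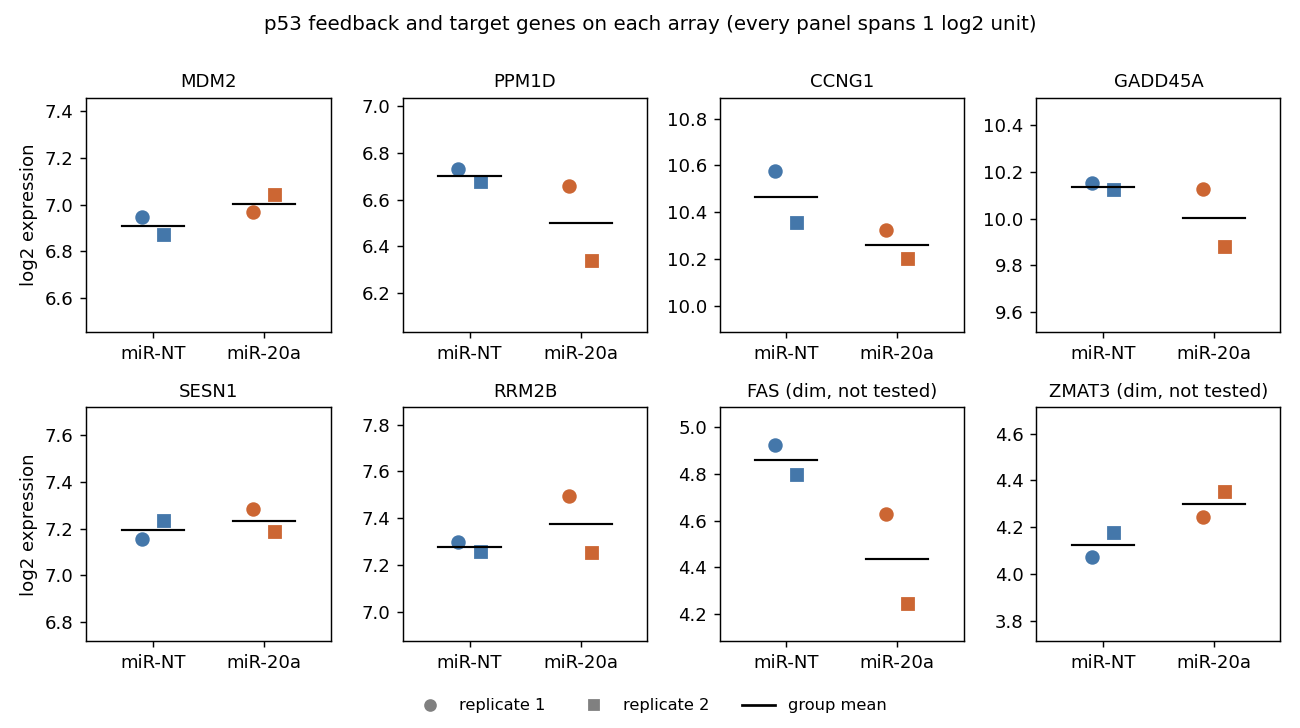
Log2 expression (vertical axis) of each of the 8 measured genes on the 2 miR-NT arrays (blue) and the 2 miR-20a arrays (orange), with circles for replicate 1, squares for replicate 2 and lines for group means; every panel spans 1 log2 unit. The orange square, miR-20a replicate 2, is the lowest point for PPM1D, CCNG1, GADD45A, RRM2B and FAS and the highest for MDM2 and ZMAT3.

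Among the inhibitors of p53, none passed the test, with log2 fold changes of 0.10 for MDM2, −0.20 for PPM1D and −0.21 for CCNG1. MDM2, the ubiquitin ligase that binds p53 and marks it for degradation, measured 6.95 and 6.87 on the miR-NT arrays and 6.97 and 7.04 on the miR-20a arrays. MDM2 values did not overlap between groups, but the gap between the nearest arrays was small beside the differences within each pair. This gave a log2 fold change of 0.10 (SE 0.10, 95% interval −0.13 to 0.33, limma adjusted p = 0.575), or 1.07-fold higher. The interval holds differences from a 1.10-fold decrease to a 1.25-fold increase.

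The second MDM2 probe set was much dimmer and measured 3.51 and 3.90 on the miR-NT arrays and 3.90 and 3.80 on the miR-20a arrays. Here the groups overlapped, with miR-NT replicate 1 below the other 3 arrays (log2 fold change 0.15). Both probe sets thus had a positive value, but the dim one lay below the level kept for the test.

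PPM1D, a phosphatase induced by p53 that removes activating phosphates from p53 and its kinases, measured 6.73 and 6.68 on the miR-NT arrays and 6.66 and 6.34 on the miR-20a arrays. One array, miR-20a replicate 2, stood below the other 3, which were close together. The log2 fold change was −0.20 (SE 0.13, 95% interval −0.50 to 0.09, limma adjusted p = 0.387), or 1.15-fold lower. Leaving out miR-20a replicate 1 gave −0.36, and leaving out replicate 2 gave −0.04.

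CCNG1 encodes cyclin G1, which brings a phosphatase to MDM2 and so favours the inhibition of p53. Its values were 10.58 and 10.36 on the miR-NT arrays and 10.32 and 10.20 on the miR-20a arrays. The groups did not overlap, yet miR-NT replicate 2 and miR-20a replicate 1 were almost level and the widest step was the one within the miR-NT pair, 0.22. The log2 fold change of −0.21 (SE 0.11, 95% interval −0.47 to 0.06) did not pass the test (limma adjusted p = 0.350). Quantile normalization brought it to −0.10. With an array left out it ranged from −0.32 without miR-NT replicate 2 to −0.09 without miR-NT replicate 1.

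None of the genes of growth arrest and repair passed the test, with values of −0.13 for GADD45A, 0.04 for SESN1 and 0.10 for RRM2B. GADD45A, a small stress protein that restrains cell cycle kinases and aids DNA repair, measured 10.15 and 10.12 on the miR-NT arrays and 10.13 and 9.88 on the miR-20a arrays. All arrays but miR-20a replicate 2, which was lower, were nearly level, so the groups overlapped. The log2 fold change was −0.13 (SE 0.11, 95% interval −0.40 to 0.13, limma adjusted p = 0.509). Without miR-20a replicate 2 it was −0.0097, and quantile normalization brought it to −0.05.

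SESN1, or sestrin 1, holds back the growth kinase mTOR under stress. It measured 7.15 and 7.23 on the miR-NT arrays and 7.28 and 7.18 on the miR-20a arrays. Its groups overlapped, and each pair differed by more than the groups did. Its log2 fold change was 0.04 (SE 0.10, 95% interval −0.19 to 0.27, limma adjusted p = 0.814), the smallest of the 6 tested genes.

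RRM2B, the p53-inducible subunit of ribonucleotide reductase, supplies DNA precursors for repair and for mitochondrial DNA. Its values were 7.30 and 7.26 on the miR-NT arrays and 7.50 and 7.25 on the miR-20a arrays. The high array was miR-20a replicate 1, while replicate 2 was the lowest of the 4, so that the groups overlapped. Between the groups the log2 fold change was 0.10 (SE 0.11, 95% interval −0.17 to 0.36, limma adjusted p = 0.631). Leaving out miR-20a replicate 2 gave 0.22, and leaving out replicate 1 turned it to −0.03.

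The death receptor FAS and the RNA-binding protein ZMAT3 were both among the dimmest 30% of genes, below a mean of 5.46, and were left out of the test. FAS, which starts cell death when its ligand binds, measured 4.92 and 4.79 on the miR-NT arrays and 4.63 and 4.24 on the miR-20a arrays. FAS values did not overlap between groups, and miR-20a replicate 2 was again the lowest. In a fit without the brightness filter the log2 fold change was −0.42 (SE 0.14, 95% interval −0.75 to −0.10), or 1.34-fold lower. It did not pass there (limma unadjusted p = 0.0169, adjusted p = 0.225). In that fit 1 of 17716 genes passed (0.00564%), while at a limma unadjusted p under 0.05 10.9% were lower and 6.18% higher. The name of this FAS probe set ends in x_at, the maker's mark for probes that can also match other transcripts.

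Each array was also left out of the FAS fit in turn. Leaving out miR-20a replicate 2 gave −0.23 (limma adjusted p = 0.502) and leaving out replicate 1 gave −0.62. The last value passed (limma adjusted p = 0.0170), as did 6.23% of all genes in that fit, where the spread of the lone miR-20a array is assumed to equal that of the miR-NT pair. Once the ACTB 5' control entered the model the value was 0.16 (limma adjusted p = 0.952).

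ZMAT3, a zinc finger protein that binds messenger RNA and is induced by p53, measured 4.07 and 4.18 on the miR-NT arrays and 4.25 and 4.35 on the miR-20a arrays. Again the groups did not overlap, and the gap between the nearest arrays was smaller than the step within either pair. Without the brightness filter the log2 fold change was 0.17 (SE 0.10, 95% interval −0.06 to 0.41, limma adjusted p = 0.387). Leaving out each array in turn gave 0.12 to 0.23, and the value was 0.0041 once the ACTB 5' control entered the model (limma adjusted p = 0.998). Whether either message was present at this brightness was not established, since no detection calls were used here.

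**Figure D2:**
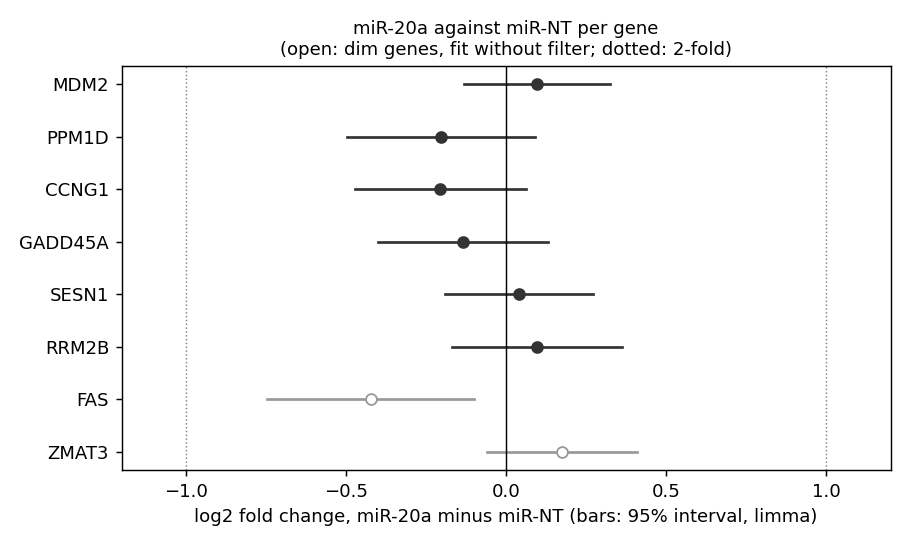
Log2 fold change of miR-20a minus miR-NT (horizontal axis) for each gene, with 95% intervals from limma; filled points are the 6 tested genes and open grey points the 2 dim genes, fitted without the filter. The intervals of all 6 tested genes include 0, that of FAS runs from −0.75 to −0.10, and none reaches the dotted 2-fold lines.

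The differences between replicates were as large as those between groups for most of these genes. In 5 of the 6 tested genes, all but MDM2, at least one replicate pair differed by more than the group means did, as in 59.0% of all tested genes. Within the miR-20a pair 5 of the 6 were lower on replicate 2, again all but MDM2, beside 58.9% of all tested genes; within the miR-NT pair replicate 2 was lower for 5 of the 6, all but SESN1, beside 66.5%. The groups did not overlap for 1 gene higher with miR-20a, MDM2, and for 2 lower, PPM1D and CCNG1. Over all tested genes, 25.1% were higher and 31.1% lower without overlap, so these counts are no result about the set. With 2 arrays a group, the smallest two-sided p of an exact permutation test is 0.333, so that test could not reach the threshold.

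The ACTB 5' control signal was lower on both miR-20a arrays than on either miR-NT array, and lowest on miR-20a replicate 2. A model that holds it therefore cannot tell the 5' signal and miR-20a apart. Once the ACTB 5' control entered the model, the fold changes were 0.27 for PPM1D and 0.23 for GADD45A, with the sign turned. The SE was the same, 0.25, for every tested gene of the set. It and the adjusted p of that fit therefore do not measure the spread of each gene. CCNG1 at 0.0089 and MDM2 at −0.0031 also changed sign but lay near 0 beside that SE. In that fit SESN1 was at 0.17 and RRM2B at 0.46, and no gene of the set passed (limma adjusted p from 0.784 for RRM2B to 0.999 for MDM2 and CCNG1). The set's median in that fit was 0.20, and that of all tested genes 0.05. The part of RNA quality in these values was not tested.

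**Figure D3:**
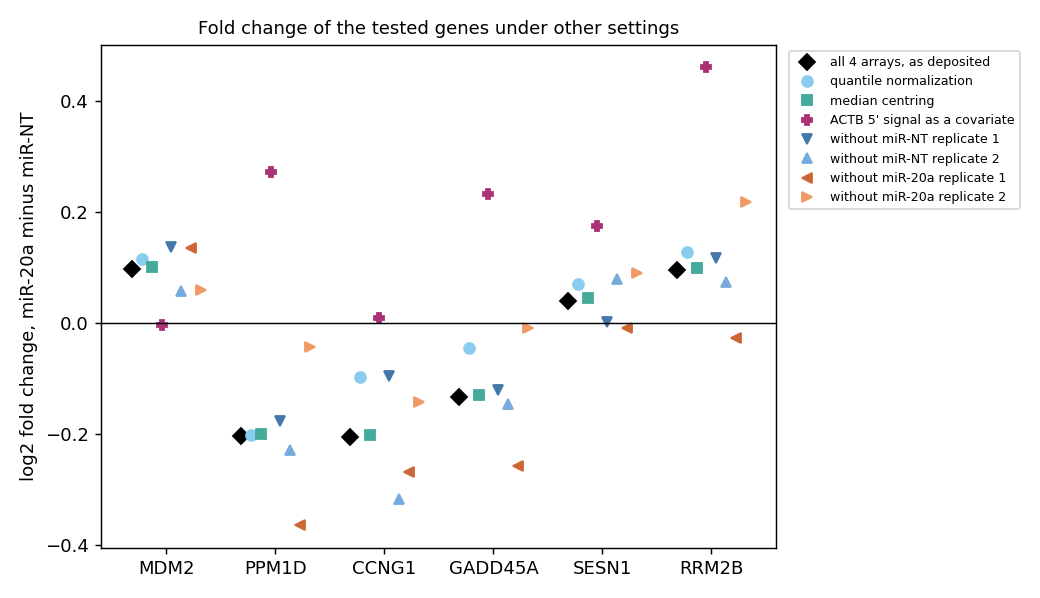
Log2 fold change of miR-20a minus miR-NT (vertical axis) for the 6 tested genes with all arrays (black diamonds), after other normalizations, with the ACTB 5' covariate and with each array left out. PPM1D runs from −0.36 to 0.27 and RRM2B from −0.03 to 0.46, while MDM2 stays between −0.0031 and 0.14.

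Other p53 targets, a list of 41 genes, had no member past the threshold either. Of these 35 were measured and 32 tested, 15 above 0 and 17 below, beside 5729 above and 6668 below over all tested genes. The median log2 fold change of the list was −0.05. At an unadjusted p under 0.05 in limma, 1 was higher and 4 were lower, where 5.82% and 13.2% of all tested genes were, so these counts are no result about the list. The groups did not overlap for 9 genes higher and 9 lower, which is 18 of 32 where the share over all tested genes is 56.2%.

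The positive values with the smallest p in this list were those of SFN, PANK1 and APAF1. SFN, also named 14-3-3 sigma, holds cells before mitosis and measured 8.38 and 8.40 on the miR-NT arrays and 8.73 and 8.91 on the miR-20a arrays. Its groups were well separated, by more than either pair differed (log2 fold change 0.43, SE 0.11, limma adjusted p = 0.127). PANK1, a kinase of coenzyme A synthesis, was at 0.22 (SE 0.10) and APAF1, the scaffold of the apoptosome, at 0.24 (SE 0.11), with limma adjusted p of 0.274 and 0.285.

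The smallest p among negative values belonged to FBXO22, PERP and TRIM22. FBXO22, an F-box subunit of a ubiquitin ligase, measured 7.80 and 7.66 on the miR-NT arrays and 7.49 and 7.23 on the miR-20a arrays (log2 fold change −0.37, SE 0.12, limma adjusted p = 0.194). PERP, a membrane protein of cell junctions and a mediator of p53-dependent death, measured 10.68 and 10.71 against 10.44 and 10.38 (−0.29, SE 0.10, limma adjusted p = 0.195). Both pairs of PERP were tight and apart from each other. TRIM22, which is also induced by interferon, was at −0.29 (SE 0.12, limma adjusted p = 0.261).

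Transcripts of proteins that act on p53 from upstream, or bind it, had mostly negative values, short of the threshold. This list was chosen with earlier results of these data known, so its counts are no result about the list. The list held 36 genes, kinases, ubiquitin ligases, acetyltransferases, relatives and ribosomal partners among them; 31 were measured and 29 tested. Of these 10 were above 0 and 19 below, beside 5729 above and 6668 below over all tested genes. The list's median log2 fold change was −0.21, beside −0.02 over all tested genes. None passed over all genes, while at an unadjusted p under 0.05 in limma 1 was higher and 9 were lower, beside 5.82% and 13.2% of all tested genes. The groups did not overlap for 8 genes higher and 16 lower, beside 25.1% and 31.1% of all tested genes. Within the miR-20a pair 25 of the 29 were lower on replicate 2, beside 58.9% of all tested genes, with a median difference of −0.14. Within the miR-NT pair 23 of the 29 were lower on replicate 2, beside 66.5%, with a median difference of −0.09. The list's median was −0.08 without miR-20a replicate 2, −0.31 without miR-20a replicate 1 and 0.08 in the model that holds the ACTB 5' control. Over all tested genes the medians of these fits were −0.01, −0.02 and 0.05. The part of RNA quality in the values of this list was not tested, and that model cannot tell the 5' signal and miR-20a apart.

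The negative values with the smallest p in this list were those of CSNK1A1, PRKDC and ATM. CSNK1A1, casein kinase 1 alpha, which works with MDM4 to hold p53 in check, measured 8.33 and 8.05 on the miR-NT arrays and 7.57 and 7.40 on the miR-20a arrays. The groups were well apart, with a log2 fold change of −0.71 (SE 0.12) that came near the threshold without passing it (limma adjusted p = 0.0949). PRKDC, the catalytic subunit of DNA-dependent protein kinase, measured 8.20 and 7.96 against 7.47 and 6.65, with the lowest value on miR-20a replicate 2 (−1.02, SE 0.24, limma adjusted p = 0.122). ATM, the kinase that signals double-strand breaks to p53, measured 5.94 and 5.74 against 5.45 and 5.23 and was close to the dimmest level kept (−0.50, SE 0.12, limma adjusted p = 0.127).

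On the positive side the smallest p were those of USP2, TP53BP1 and CHEK1. USP2, a protease that removes ubiquitin from MDM2, was at 0.27 (SE 0.10, limma adjusted p = 0.228). The break-site adaptor TP53BP1 was at 0.21 (SE 0.11) and the checkpoint kinase CHEK1 at 0.20 (SE 0.11), with limma adjusted p of 0.341 and 0.356. USP7, the other MDM2 deubiquitinase of the list, chosen after its values were seen, was at 0.15 (SE 0.10, limma adjusted p = 0.424).

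**Figure D4:**
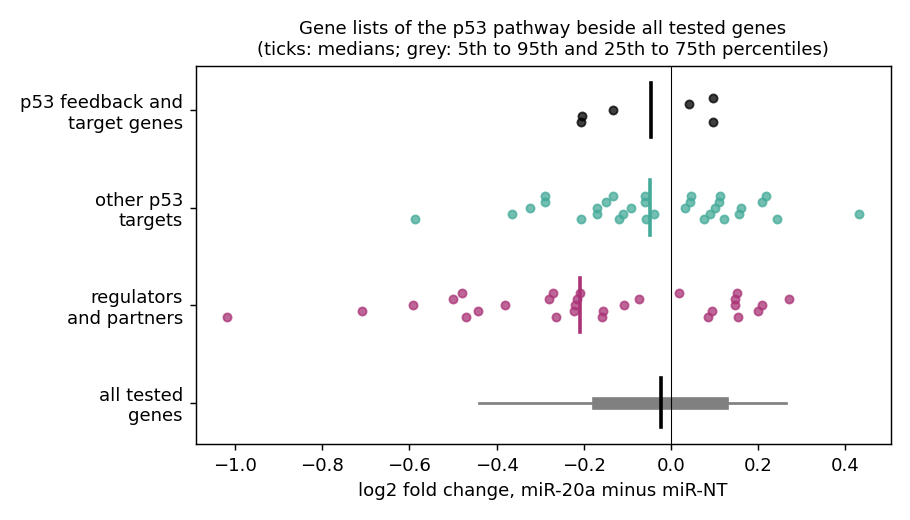
Log2 fold change of miR-20a minus miR-NT (horizontal axis) for the tested members of 3 gene lists, 1 point a gene with the list's median as a tick, above the percentiles of all tested genes in grey. The p53 feedback and target genes lie between −0.21 and 0.10, the other targets have a median of −0.05, and the regulators and partners have a median of −0.21 with the lowest value at −1.02.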

How the data were processed

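Total RNA was labelled and hybridised to 4 Affymetrix arrays, 2 per group; whether replicates came from separate cultures is not stated, so the p-values cover the variation among these 4 arrays alone, which may be technical. The deposited table gives a log2 value for each probe set on each array (the scale was inferred from the range of values). The authors used the R package affy, per the submitters' processing notes; the summarisation, the background correction and the normalization were not given in the sources used here. Gene symbols came from the platform annotation and were brought up to date by RefSeq gene identifier. Of 20323 probe sets 886 had several symbols and 1375 no gene, and these were not used.

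For each gene the probe set with the highest mean was kept, the dimmest 30% of genes (5315) were left out, and the rest were fitted with limma 3.58.1 in R 4.3.3 (lmFit, eBayes, two-sided, no covariate, Benjamini-Hochberg over 12401 genes, threshold 0.05). Standard errors and 95% intervals are those of the moderated fit (2 residual and 5.53 prior degrees of freedom). Precision is limited by the number of arrays. The code was tested on simulated data. The 8 measured genes of the 9 are described, and of the other p53 lists the 3 genes with the smallest p in each direction. The members and lists were chosen with earlier results of these data known.

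Alternatives were quantile normalization, median centring, other brightness filters, a trended robust prior, averaging over probe sets, the replicate number as a block, the ACTB 5' control in the model and each array left out in turn. The fits of FAS and ZMAT3 that combine no filter with a second change were chosen after seeing the data.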

Additional observations from a re-analysis of the deposited data

How the results depend on the processing

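No gene of the set passed under any alternative in which it was tested, except FAS without the brightness filter and without miR-20a replicate 1. Once the ACTB 5' control entered the model the log2 fold change changed sign for 5 genes. It was −0.0031 for MDM2, 0.27 for PPM1D, 0.0089 for CCNG1, 0.23 for GADD45A and 0.16 for FAS. The control differed between the groups, so this fit cannot tell its signal and miR-20a apart, and the cause was not tested. With an array left out it ranged from −0.0094 to 0.090 for SESN1 and from −0.027 to 0.22 for RRM2B, both negative only without miR-20a replicate 1. Averaging its probe sets put MDM2 below the brightness filter, so it has no value there. Over all genes, 1 passed in the reported fit, 6 after quantile normalization, 47 after median centring, 4 with the dimmest 50% left out, 24 with the trended robust prior, 0 with the replicate number as a block and 6 with the ACTB 5' covariate. With an array left out the count ranged from 0 to 1869, highest without miR-20a replicate 1 (260 without replicate 2), and 0 without either miR-NT array; the cause was not tested. In such fits the other p53 targets had 0 to 5 genes past the threshold and the regulators and partners 0 to 10, both highest without miR-20a replicate 1; without replicate 2 the regulators had 3. The tested genes were 32 in the list of other targets, 29 in that of regulators and partners, and 12401 in all. The counts of both lists thus belong beside the counts over all genes in the same fits, which rose with them. Each such fit leaves 1 array alone in a group, so these counts are no result about the lists. The labels do not say that the replicate number pairs the arrays. The replicate differences of both groups had a correlation of 0.27 across genes. With the number as a block no gene of the set passed (limma adjusted p = 0.195 for CCNG1 and 0.260 for PPM1D). The 2 arrays per group leave differences of up to about 1.41-fold within the intervals of the tested genes.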
